A study of Mus musculus with 6 samples.

Results

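The genes described here are 42 members of the TGF-beta and BMP pathways, taken by symbol as a list of ligands, receptors, SMADs, antagonists and ID targets. All 42 were among the 21959 genes of the count table of a mouse gastric adenocarcinoma cell line, MPC, and its paclitaxel (PTX) derivative, MPC-PTX. The paper on these cells calls the lines MTC and MTC-R. Each line was sequenced as 3 libraries of poly-A selected RNA. The comparison asks which of these genes differed in RNA level once the line had been carried through PTX. Both lines had the genotype CDH1-/-;Trp53-/-, and the control MPC cells therefore carried the same deletions as MPC-PTX. MPC was raised from gastric organoids of a C57BL/6J mouse with floxed Trp53 and Cdh1 and a Mist1-CreER driver, grown as a subcutaneous tumour in a nude mouse and then selected as 1 clone. MPC-PTX had received over 30 cycles of PTX and was also selected as a clone, so each line stands for 1 clone and PTX exposure cannot be told apart from clonal selection. Both lines grew in the same serum-containing medium, and all 6 libraries carried the same batch number. The labels do not say whether the 3 replicates of a line were separate cultures, so the p-values measure only the spread between these libraries, which may be technical. Fewer cells expressing a gene and less RNA per cell cannot be told apart in bulk samples.

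The library totals ran from 16574580 to 23148182 counts, with MPC-PTX replicate 3 the shallowest, and 13897 to 14295 genes had at least 1 count per library. The spread between replicates was 17.9% in MPC and 3.01% in MPC-PTX, as biological coefficients of variation over all genes, and MPC replicate 3 stood apart from the other MPC libraries in a way described with the receptors. Of 12 gastric epithelial and keratin markers, the summed level in CPM (counts of a gene scaled to a common library size) was 7183 to 8259 in MPC and 4189 to 4292 in MPC-PTX, and Tff1, Tff2 and Pgc were at 0 in every library. Muc5ac, Gkn1, Gif and Atp4a had at most 6 counts in a library, so the sum came almost wholly from keratins, Epcam and Cldn18. All 5 of the 12 markers that could be tested, Krt8, Krt18, Krt19, Epcam and Cldn18, were lower in MPC-PTX. The part of this shift in the results on pathway genes was not tested. Summed levels of other cell types were low in both lines, at 10.3 to 11.4 CPM in MPC and 9.27 to 10.3 in MPC-PTX for 12 fibroblast markers, 11.5 to 13.0 and 9.98 to 10.8 for 10 leukocyte markers, and 5.72 to 7.45 and 5.60 to 6.71 for 8 endothelial markers. These sums also rested on few genes. The fibroblast sum came mostly from Col1a1 (mean 5.78 CPM in MPC and 3.31 in MPC-PTX) and Pdgfra (3.58 and 4.59). Cd68 (11.5 and 9.47) made up almost all of the leukocyte sum, and Kdr, Flt1 and Vwf most of the endothelial sum.

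TGF-beta, activin and BMP ligands are secreted dimers that bring together type I and type II receptor kinases at the cell surface. The activated type I receptor phosphorylates SMAD proteins, SMAD2 and SMAD3 downstream of TGF-beta and activin and SMAD1, SMAD5 and SMAD9 downstream of BMPs, and these enter the nucleus with SMAD4 to regulate transcription. Secreted antagonists, inhibitory SMADs and the co-repressors SKI and SKIL restrain the signal, and the ID genes are among its best-known BMP targets. In epithelia, the stomach included, TGF-beta is known both for slowing proliferation and for inducing mesenchymal and matrix genes, and components of the pathway are often altered in gastrointestinal cancers.

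With all 6 libraries, most ligands of the TGF-beta and activin group were higher in MPC-PTX, while receptors and SMADs mostly did not pass the test. Without MPC replicate 3, Tgfbr1, Bmpr1a, Bmpr2, Acvr2a, Smad2 and Smad4 were also higher, as described with the receptors. The ligands Tgfb1, Tgfb3 and Gdf15 lost their call in some settings. Of the 42 genes, 33 passed a filter on low counts and were tested by the quasi-likelihood method of edgeR, with p-values adjusted after Benjamini and Hochberg over all 11795 genes tested. A gene was called where its adjusted p was below 0.05, and each change is given as log2FC, the log2 fold change of MPC-PTX over MPC, with its standard error (SE). By that rule 8 members were higher (Tgfb1, Tgfb3, Inhba, Gdf11, Gdf15, Bmp4, Bambi and Id1), 4 were lower (Bmp1, Acvr1b, Smad3 and Id2) and 21 did not pass. Gdf15 had fewer than 10 counts in every MPC library and passed the filter only through MPC-PTX, where it was high. The counts and shares that follow include it. The called share was 36.4% of the tested members against 29.7% of all genes tested, with 24.2% against 14.1% for higher calls and 12.1% against 15.6% for lower calls. The study's own rule, which asks for a log2FC beyond 1 in either direction and an unadjusted p below 0.05, took in 2 members, Inhba and Gdf15, both higher, which is 6.06% of the members tested against 8.11% of all genes, or 3.77% counting higher genes alone. The median log2FC of the tested members was 0.20 against 0.04 over all genes, and 21 members had a positive and 12 a negative value, where 55.2% of all genes had a positive one. The CPM of the 2 lines did not overlap for 18 members, which is 54.5% against 46.9% of all genes. Of these, 14 were higher and 4 lower in MPC-PTX, where 24.2% and 22.7% of all genes stood apart in those directions.

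The number of calls depended on single libraries. Without MPC replicate 3 there were 17 higher and 4 lower members, in a fit that called 52.5% of all genes, and 4 members passed the study's rule. Without MPC-PTX replicate 1 there were 4 higher and 2 lower, and without MPC-PTX replicate 2 there were 3 higher and 1 lower, in fits that called 16.2% and 15.99% of all genes. Bmp1, Gdf11 and Inhba kept their call in all 14 alternative settings. The other 9 called members lost it in at least 1 setting, and 0 of the 12 changed direction.

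**Figure D1:**
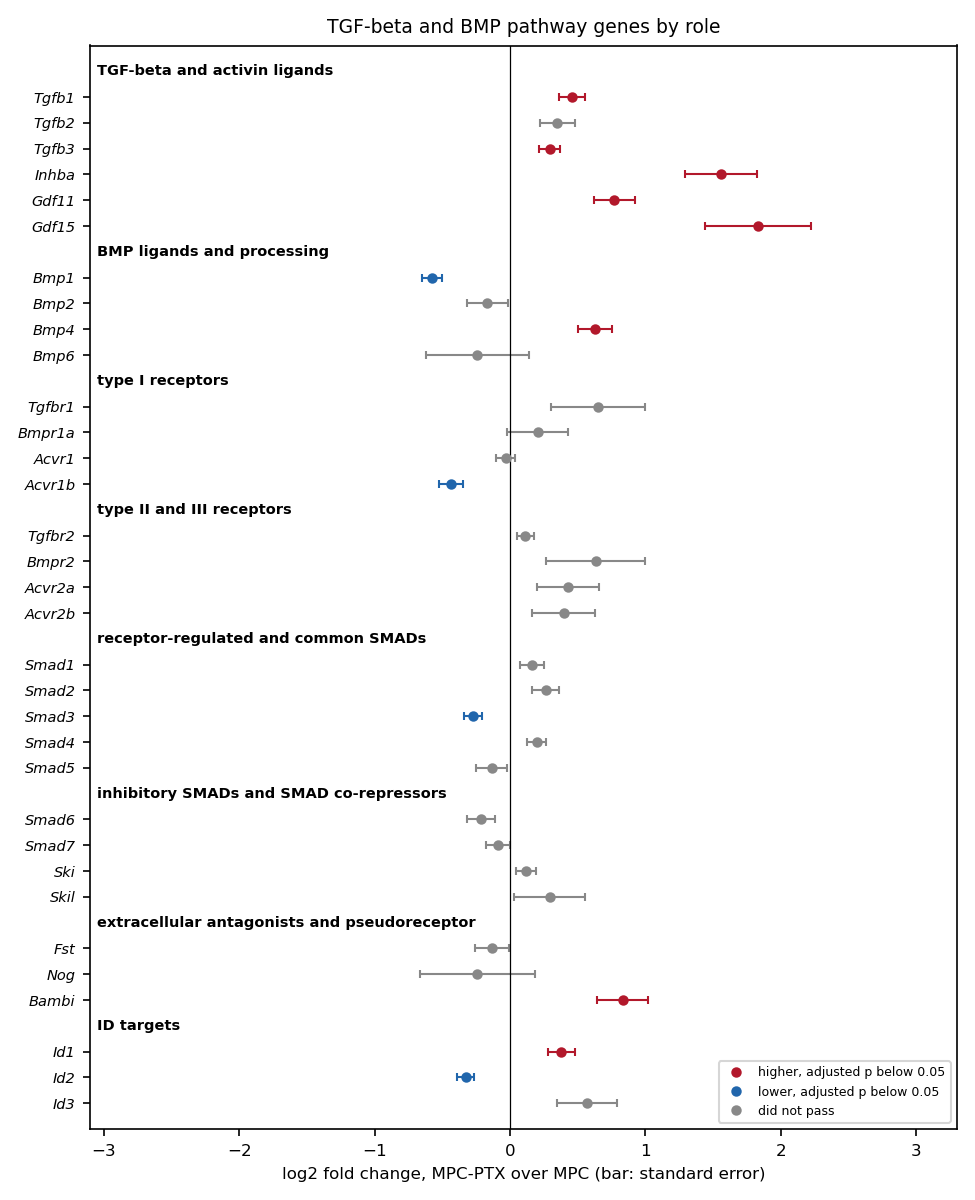
Log2 fold change (log2FC) of the 33 tested genes, MPC-PTX over MPC (horizontal axis), with genes grouped by role and bars for the standard error. Red points were higher and blue points lower with an adjusted p below 0.05. All 6 tested TGF-beta and activin ligands lie above 0, and Inhba (1.56) and Gdf15 (1.83) lie farthest to the right.

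The TGF-beta and activin ligands were the role with the most calls. Of 7 listed, 6 were tested, 5 of these were higher, and the median log2FC was 0.61. Of all genes tested, 14.1% were called higher, and their median log2FC was 0.04. The CPM of all 6 ligands was higher in MPC-PTX without overlap, which was so for 24.2% of all genes. The 5 include Gdf15, which signals outside the SMAD system and had fewer than 10 counts in every MPC library. It passed the filter only through MPC-PTX, so its call lends no separate support to the role. The role as a set was not tested. Inhba encodes the subunit that forms activin A. It had 77, 95 and 173 counts in the MPC libraries and 334, 399 and 319 in the MPC-PTX libraries, or 5.77 ± 2.24 and 17.1 ± 2.47 CPM (SD, n = 3 per line). The highest MPC library, replicate 3 at 8.31 CPM, lay below the lowest MPC-PTX library at 14.3 CPM. The log2FC was 1.56 (SE 0.26, adjusted p = 0.00555), a 2.96-fold ratio of mean CPM, and it stayed between 1.36 and 1.86 over the alternative settings. Inhba lies at chr13:16011851-16031621 on the forward strand of GRCm38, and the 26 tested genes within 5 Mb of it had a median log2FC of -0.17. Gdf15, a stress-induced member of the superfamily that signals through a receptor of its own outside the SMAD system, had 7, 9 and 3 counts in MPC and 26, 30 and 17 in MPC-PTX. Its libraries did not overlap, although every MPC library held fewer than 10 counts. Its CPM was 0.327 ± 0.165 in MPC and 1.16 ± 0.176 in MPC-PTX (SD, n = 3), with a log2FC of 1.83 (SE 0.39, adjusted p = 0.0123). The call was lost without MPC-PTX replicate 2 (adjusted p = 0.0581). Gdf15 lies at chr8:70629393-70632456, and the 113 tested genes within 5 Mb had a median log2FC of 0.24.

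Among the TGF-beta isoforms themselves, Tgfb1 was the most abundant per kb of transcript. It had 835, 789 and 747 counts in MPC and 1325, 1252 and 892 in MPC-PTX, which at library depth was 40.3 ± 4.25 and 55.4 ± 2.04 CPM (SD, n = 3). The lowest MPC-PTX library, at 53.0 CPM, lay above the highest MPC library, at 44.4 CPM. The log2FC of Tgfb1 was 0.46 (SE 0.09, adjusted p = 0.0105), and the call was lost without MPC-PTX replicate 1 and without MPC-PTX replicate 2 (highest adjusted p = 0.055). Tgfb3, the isoform best known from palate fusion, had 509, 557 and 600 counts against 819, 780 and 563, with a log2FC of 0.29 (SE 0.08, adjusted p = 0.0251), and lost its call in 6 of 14 settings, among them DESeq2 and the fits without MPC replicate 2 or any 1 of the MPC-PTX replicates (highest adjusted p = 0.118). Tgfb2 had 197, 204 and 277 counts against 336, 304 and 265. The CPM of Tgfb2 did not overlap between the lines either, but its log2FC of 0.35 (SE 0.13) did not pass (adjusted p = 0.0803). Gdf11, a close relative of myostatin that signals through activin receptors, had 126, 127 and 109 counts against 272, 241 and 150, or 6.16 ± 0.802 and 10.5 ± 1.40 CPM (SD, n = 3). All MPC-PTX libraries of Gdf11 were above all MPC libraries, with a log2FC of 0.77 (SE 0.15, adjusted p = 0.00916). Inhbb, the other activin subunit listed, was at 0 in every library.

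Inhba had a log2FC beyond 1 and kept its call in all 14 settings, so the 250 bases before its annotated start are shown, from RefSeq on GRCm38.p6 (chr13:16011601-16011850, forward strand), with GTCT or AGAC, the core of the SMAD binding element, in capitals.
Inhba: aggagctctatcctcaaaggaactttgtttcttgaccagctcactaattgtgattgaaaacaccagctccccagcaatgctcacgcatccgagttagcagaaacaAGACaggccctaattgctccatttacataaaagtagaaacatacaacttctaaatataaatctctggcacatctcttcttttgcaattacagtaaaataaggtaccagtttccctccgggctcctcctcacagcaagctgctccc
The window held 1 match, where the median over 32851 promoters of the same length was 2 and 82.9% held at least 1, searched on both strands. It held no GGCGCC, the core of the BMP response element, which 9.59% of promoters held. Gdf15 was the other member with a log2FC beyond 1. The windows before its annotated starts held 4 and 2 matches to GTCT or AGAC and 0 to GGCGCC. These matches describe the letters in the windows.

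**Figure D2:**
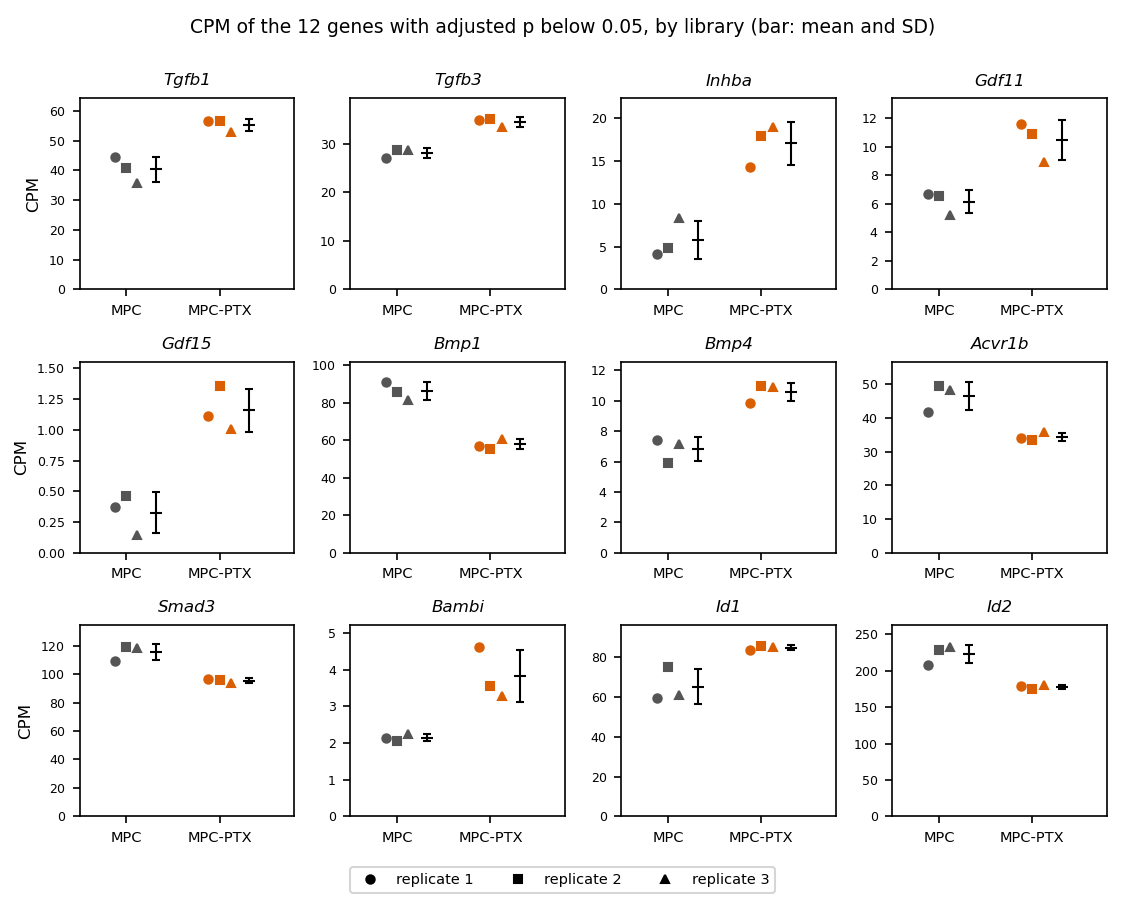
CPM of the 12 called genes by library (vertical axes, each starting at 0), with circles, squares and triangles for replicates 1, 2 and 3 and bars for mean and SD. In every panel all MPC-PTX libraries lie on one side of all MPC libraries. Inhba shows MPC replicate 3 (8.31 CPM) above the other MPC libraries, and Bambi shows the widest spread among MPC-PTX libraries relative to its mean.

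The BMP ligands and the processing enzyme Bmp1 did not move one way. Of 6 listed, 4 were tested, 1 was higher and 1 lower (25% each, against 14.1% and 15.6% of all genes tested). Bmp4, a BMP ligand of many developing epithelia, had 140, 115 and 149 counts in MPC and 231, 243 and 183 in MPC-PTX, or 6.84 ± 0.803 and 10.6 ± 0.606 CPM (SD, n = 3). The groups did not overlap, and the log2FC of Bmp4 was 0.63 (SE 0.13, adjusted p = 0.00959), with an adjusted p of 0.0513 without MPC-PTX replicate 2. Bmp1 is not a BMP but a secreted metalloprotease that cleaves procollagen and the BMP antagonist chordin. It was the most abundant gene of this role per kb, with 1711, 1664 and 1695 counts in MPC and 1335, 1233 and 1024 in MPC-PTX, or 86.0 ± 4.74 and 57.8 ± 2.71 CPM (SD, n = 3). Every MPC-PTX library of Bmp1 was below every MPC library, with a log2FC of -0.57 (SE 0.07, adjusted p = 0.00155). Bmp2 had 75, 83 and 105 counts against 86, 90 and 70, with a log2FC of -0.17 (SE 0.15, adjusted p = 0.44) and overlapping CPM. Bmp6 had 7 to 22 counts per library, which also overlapped, and shares up to 224 bases of exon with Txndc5 on the opposite strand, whose count reached 7171 in a library. Strand use in the counting is not given in the sources used here, so reads of Bmp6 and Txndc5 could not be told apart. Bmp7 was at 0 in every library, and Bmp8b had 0 to 3 counts.

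Receptor genes mostly did not pass, and several had one high MPC library. Among type I receptors, 4 of 5 were tested and only Acvr1b was called, as lower (25%, against 15.6% of all genes tested). Acvr1b encodes ALK4, the type I receptor of activin. It had 785, 961 and 1002 counts in MPC and 795, 741 and 601 in MPC-PTX, or 46.5 ± 4.18 and 34.4 ± 1.20 CPM (SD, n = 3). All MPC-PTX libraries of Acvr1b lay below all MPC libraries, with a log2FC of -0.44 (SE 0.09, adjusted p = 0.0106). The Acvr1b call was lost without MPC-PTX replicate 1 and without MPC-PTX replicate 2 (highest adjusted p = 0.0603). Bmpr1a, the BMP receptor with the highest mean level per kb over both lines in this role, had 1079, 1320 and 2279 counts against 2015, 2001 and 1592, with a log2FC of 0.20 (SE 0.23, adjusted p = 0.534). Tgfbr1, the type I receptor of TGF-beta, had 391, 507 and 1173 counts against 1155, 1212 and 982, with a log2FC of 0.65 (SE 0.35, adjusted p = 0.213). In Tgfbr1 the MPC replicate 3 library, at 56.4 CPM, lay inside the MPC-PTX range of 49.3 to 58.3 CPM, while the other MPC libraries were at 20.8 and 26.1 CPM. Acvr1, a BMP type I receptor, had a log2FC of -0.03 (SE 0.07), and Bmpr1b had 0 or 1 count per library.

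Of the type II and III receptors, 4 of 5 were tested. By edgeR with all libraries, no block and no GC or length correction, 0 were called, where 29.7% of all genes were. The unadjusted p-values of these receptors in that fit ran from 0.102 to 0.13, none of which was under 0.05. With DESeq2, 0 were called as well. Tgfbr2, which binds TGF-beta first, had 4826, 4647 and 4799 counts in MPC and 5995, 5857 and 4476 in MPC-PTX, or 242 ± 13.1 and 262 ± 5.23 CPM (SD, n = 3). The lines overlapped in Tgfbr2, whose log2FC was 0.11 (SE 0.06, adjusted p = 0.208). Bmpr2, the BMP type II receptor, had 791, 1016 and 2433 counts against 2232, 2479 and 2034, with a log2FC of 0.63 (SE 0.37, adjusted p = 0.241). As in Tgfbr1, the MPC replicate 3 library of Bmpr2, at 116.9 CPM, lay within the MPC-PTX range of 95.3 to 120.8 CPM, and the others were at 42.0 and 52.4 CPM. The activin receptors Acvr2a and Acvr2b had log2FCs of 0.43 and 0.40 (SE 0.23 for each), and Acvr2a shares up to 446 bases of exon with Orc4 on the opposite strand. Tgfbr3, the co-receptor betaglycan, had 0 to 2 counts.

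MPC replicate 3 differed from the other MPC libraries along transcript GC content and length. Over 11776 genes, its deviation from its group mean had a Spearman rho of -0.61 with GC content and 0.48 with length, values that describe this library across genes. The rho with GC content was 0.49 for MPC replicate 1 (-0.44 with length) and 0.36 for MPC replicate 2, and deviations within a line sum to about 0, so these values are not independent. In the MPC-PTX libraries it was 0.29, -0.01 and -0.28 for replicates 1, 2 and 3. Over the 33 tested members, the log2 ratio of its CPM to the mean of MPC replicates 1 and 2 had a rho of -0.77 (Pearson r = -0.75) with GC content and 0.49 with length. The ratio was above 0.5 for 7 members, Bmpr2 (1.31), Tgfbr1 (1.26), Skil (0.91), Inhba (0.89), Bmpr1a (0.80), Acvr2a (0.75) and Id3 (0.55). The first 6 had a GC content of at most 41.4%, and Id3 had 55.6%. It was lowest for Gdf15 (-1.54), where it rests on 3 counts. Without MPC replicate 3, 9 more members were higher in edgeR. These were Tgfb2, Tgfbr1 (log2FC 1.15, adjusted p = 4.235e-05), Bmpr2 (1.16, adjusted p = 0.000155), Bmpr1a (0.47), Acvr2a (0.67), Smad2 (0.32), Smad4 (0.18), Skil (0.61) and Id3 (0.72). With each library corrected for GC content and length instead, 12 members were higher and 5 lower, in a fit that called 43.0% of all genes. That correction added Tgfb2, Tgfbr1 (0.53, adjusted p = 0.0194), Bmpr2 (0.37, adjusted p = 0.0124) and Smad4 to the higher genes and Smad5 (-0.26, adjusted p = 0.00703) to the lower ones. The other 5 genes gained without MPC replicate 3 did not pass under the correction, where the log2FC was 0.05 for Bmpr1a, 0.11 for Skil, 0.09 for Smad2 (adjusted p = 0.409) and 0.22 for Acvr2a. That of Id3 was 0.65 (SE 0.26, adjusted p = 0.0802), against 0.57 without the correction. The part of this library difference in the receptor results was not tested further.

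**Figure D3:**
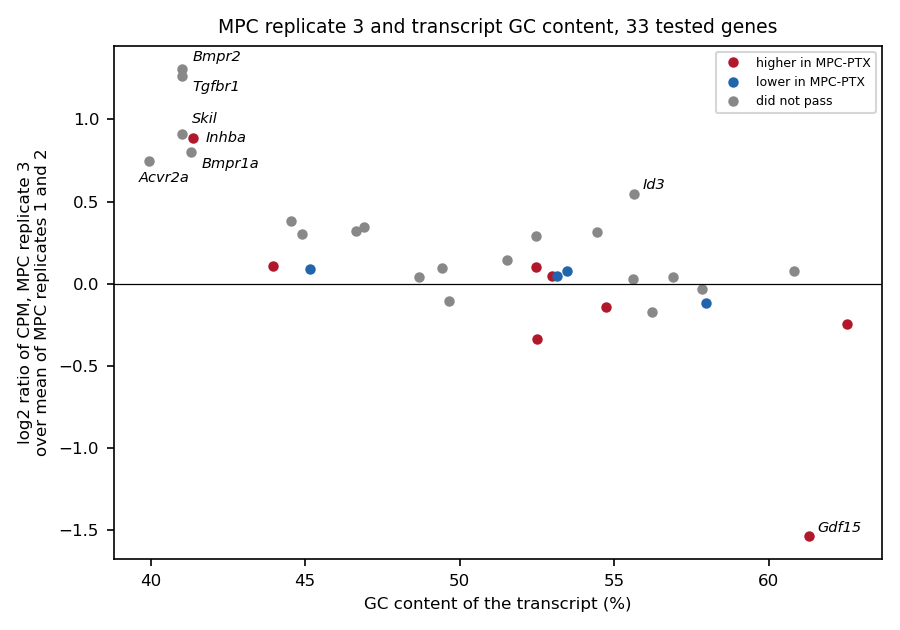
Log2 ratio of CPM in MPC replicate 3 to the mean of MPC replicates 1 and 2 (vertical axis) against transcript GC content in percent (horizontal axis), 1 point per tested gene. Genes of low GC content, Bmpr2 (1.31), Tgfbr1 (1.26), Skil, Inhba, Bmpr1a and Acvr2a, sit at the upper left, and Gdf15 (-1.54) lies alone at the lower right.

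Of the 6 signal-transducing SMADs listed, 5 were tested and 1, Smad3, was called, as lower (20%, against 15.6% of all genes tested). The CPM of 4 did not overlap between the lines, which was so for 46.9% of all genes tested. Smad3, a TGF-beta and activin SMAD that binds DNA directly, had 2055, 2312 and 2456 counts in MPC and 2264, 2126 and 1580 in MPC-PTX, or 115.5 ± 5.47 and 95.5 ± 1.46 CPM (SD, n = 3). The lines did not overlap in Smad3, with a log2FC of -0.27 (SE 0.06, adjusted p = 0.0167). Its call was lost in 4 of the 6 settings that left out 1 library, MPC replicate 2 and each MPC-PTX replicate (highest adjusted p = 0.0878). Smad4, the common partner SMAD and the most abundant of the group per kb, had 1411, 1593 and 1744 counts against 2185, 2018 and 1544, or 80.3 ± 4.69 and 92.0 ± 1.20 CPM (SD, n = 3). Its CPM did not overlap either, but the log2FC of 0.20 (SE 0.07) did not pass (adjusted p = 0.0709). Smad2, the partner of Smad3, had a log2FC of 0.26 (SE 0.10, adjusted p = 0.0919), and the BMP SMADs Smad1 and Smad5 had 0.16 (SE 0.09) and -0.14 (SE 0.11). Smad9 was at 0 in every library.

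None of the 4 intracellular brakes passed the edgeR test with all libraries, with 0 unadjusted p-values under 0.05 and 0 calls with DESeq2. Of all genes tested, 29.7% were called by edgeR, and 4 genes are too few to set against that share. Skil, which encodes the co-repressor SnoN, was the most abundant of them per kb, with 1307, 1642 and 3020 counts in MPC and 2606, 2746 and 2213 in MPC-PTX. Its libraries overlapped through MPC replicate 3, and the log2FC was 0.29 (SE 0.26, adjusted p = 0.437). The inhibitory SMADs Smad6, which acts mainly on BMP signals, and Smad7, which blocks type I receptors, had -0.21 (SE 0.11) and -0.09 (SE 0.09), and Ski had 0.12 (SE 0.08).

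Of the extracellular antagonists and the pseudoreceptor, 3 of 5 were tested and 1 was higher (33.3%, against 14.1% of all genes tested). Bambi encodes a membrane protein like a type I receptor without a kinase, which dampens TGF-beta and BMP signals and is itself induced by them. It had 40, 40 and 47 counts in MPC and 108, 79 and 55 in MPC-PTX, or 2.15 ± 0.100 and 3.81 ± 0.708 CPM (SD, n = 3). The lines did not overlap, and the log2FC of Bambi was 0.83 (SE 0.19, adjusted p = 0.0147), lost without MPC replicate 2 or without MPC-PTX replicate 1 (highest adjusted p = 0.0629). Fst encodes follistatin, the secreted inhibitor that binds activin, and was the most abundant of the role per kb. It had 211, 216 and 290 counts against 274, 235 and 182, with overlapping CPM and a log2FC of -0.13 (SE 0.12, adjusted p = 0.459). Set against its inhibitor, Inhba had 0.365, 0.440 and 0.597 counts per count of Fst in the MPC libraries and 1.22, 1.70 and 1.75 in the MPC-PTX libraries. The mean ratios, 0.467 ± 0.118 and 1.56 ± 0.294 (SD, n = 3), differed by more than the spread between replicates. This ratio, and the ID ratio given with the ID genes, were chosen after the values had been seen, so they are descriptions with no test, and they are not corrected for transcript length. The BMP antagonist Nog had 4 to 19 counts per library and a log2FC of -0.24 (SE 0.42). Grem1 was at 0 in every library, and Fstl1, a follistatin-like glycoprotein, had 1 to 6 counts.

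The ID genes, which encode helix-loop-helix proteins that block DNA binding by their partners, split in direction. Of 4 listed, 3 were tested, 1 was higher and 1 lower, and none of the 3 overlapped between the lines. Of all genes tested, 14.1% were called higher, 15.6% were called lower and 46.9% did not overlap. Id1 had 1122, 1459 and 1270 counts in MPC and 1955, 1905 and 1433 in MPC-PTX, or 65.3 ± 8.63 and 84.8 ± 1.22 CPM (SD, n = 3). Its log2FC was 0.38 (SE 0.10, adjusted p = 0.0271), a call lost without each MPC-PTX replicate in turn and with a filter of at least 10 counts in every library (highest adjusted p = 0.102). Id2, the most abundant member of the whole list per kb, had 3924, 4433 and 4837 counts in MPC and 4179, 3884 and 3033 in MPC-PTX. That was 223 ± 12.8 and 178 ± 2.59 CPM (SD, n = 3), with every MPC-PTX library below every MPC library and a log2FC of -0.33 (SE 0.06, adjusted p = 0.00802). The Id2 call was lost without MPC-PTX replicate 2 (adjusted p = 0.0531). Id3 had 61, 99 and 127 counts against 162, 151 and 131, with a log2FC of 0.57 (SE 0.22) that did not pass (adjusted p = 0.0969). Id4 had 0 or 1 count. Within a library the ratio of Id1 to Id2 counts was 0.286, 0.329 and 0.263 in MPC and 0.468, 0.491 and 0.473 in MPC-PTX. The mean ratio was 0.292 ± 0.0338 in MPC and 0.477 ± 0.0120 in MPC-PTX (SD, n = 3), and the libraries of the lines did not overlap.

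The promoters of Id2, which was called lower, and of Id3, whose positive log2FC did not pass, are shown. They cover the same 250 bases before the RefSeq start on GRCm38.p6, with GGCGCC and with GTCT or AGAC in capitals. They are the window chr12:25096093-25096342 on the reverse strand for Id2 and chr4:136143572-136143821 on the forward strand for Id3, each printed 5′ to 3′ along its gene.
Id2: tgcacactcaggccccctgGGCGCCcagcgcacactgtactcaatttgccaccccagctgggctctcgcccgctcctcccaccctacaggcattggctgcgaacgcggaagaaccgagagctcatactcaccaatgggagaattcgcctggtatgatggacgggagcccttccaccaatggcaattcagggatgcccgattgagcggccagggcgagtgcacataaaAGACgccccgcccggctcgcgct
Id3: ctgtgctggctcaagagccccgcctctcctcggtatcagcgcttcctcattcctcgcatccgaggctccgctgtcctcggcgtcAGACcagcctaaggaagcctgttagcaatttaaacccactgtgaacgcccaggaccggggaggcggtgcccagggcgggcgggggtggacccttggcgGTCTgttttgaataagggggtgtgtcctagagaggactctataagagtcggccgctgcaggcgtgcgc
Id2 held 1 match to GGCGCC and 1 to GTCT or AGAC, and Id3 held 0 and 2. Id4, with almost no counts, held 1 match to GGCGCC and 0 to GTCT or AGAC. The shares of all promoters with a match are those given for Inhba, and Id1 is named only.

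Levels could be compared between genes only per kb of transcript. In CPM per kb, Id2 led at 113.3 ± 6.52 in MPC and 90.4 ± 1.32 in MPC-PTX, followed by Id1 at 56.3 ± 7.44 and 73.1 ± 1.05 (SD, n = 3). The receptor and SMAD genes that lead their roles came next, Tgfbr2 at 29.9 ± 1.62 and 32.4 ± 0.646 and Smad4 at 23.7 ± 1.39 and 27.2 ± 0.355 CPM per kb. In MPC, Smad4, Bmp1 (23.4 ± 1.29) and Smad3 (22.7 ± 1.08) lay within about 1 SD of each other. In MPC-PTX, Tgfb1 at 25.5 ± 0.937 CPM per kb lay above Bmp1 at 15.7 ± 0.736, where in MPC it had been below at 18.5 ± 1.95. The ligand genes with the largest fold changes stood low, Inhba at 0.903 ± 0.351 and 2.67 ± 0.387 CPM per kb and Gdf15 at 0.211 ± 0.107 and 0.749 ± 0.114. In the type I receptors of MPC, Acvr1 (13.4 ± 0.33) and Bmpr1a (13.2 ± 4.63) did not differ beyond their spread. Of the 9 genes below the filter, the 4 at 0 in every library (Inhbb, Bmp7, Smad9 and Grem1) allow up to 0.0501 CPM in MPC and 0.0487 CPM in MPC-PTX, for counting error only, and the other 5 had at most 6 counts in a library.

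**Figure D4:**
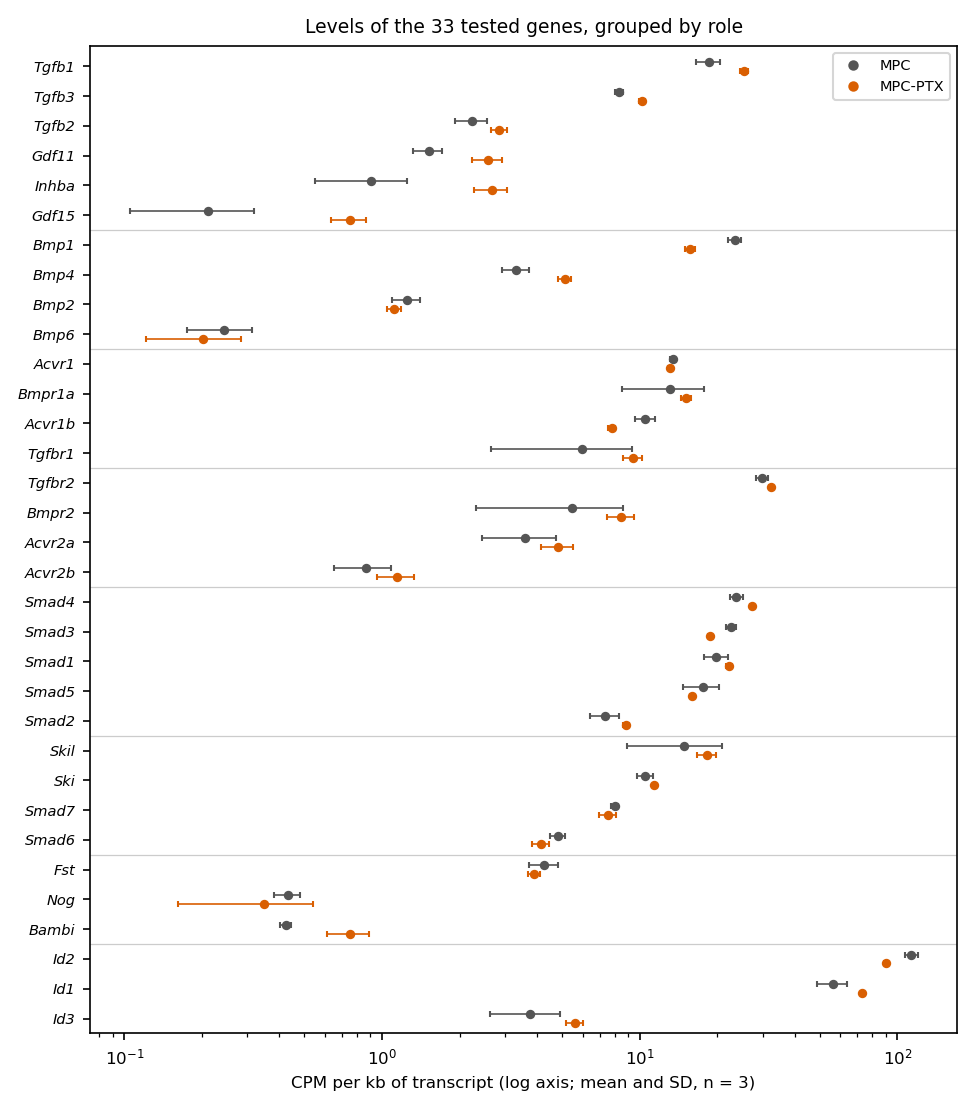
Level of the 33 tested genes in CPM per kb of transcript (horizontal log axis, mean with SD, n = 3), in grey for MPC and orange for MPC-PTX, in blocks by role and ordered by the MPC level. Id2 and Id1 lie at the far right, Gdf15 and Bmp6 at the left, and the widest MPC bars belong to Tgfbr1, Bmpr2 and Gdf15.

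Beyond the 42 genes, 84 other genes of the pathways were listed by role and 41 of them were tested, of which 9 were higher and 11 lower (22.0% and 26.8%, against 14.1% and 15.6% of all genes). The number called was 12 without MPC-PTX replicate 1 and 13 without MPC-PTX replicate 2 or replicate 3, against 20 with all libraries. None of 19 other ligands (GDF, BMP, nodal and inhibin genes among them) passed the filter. Of 9 genes tested in the list for latency and activation of TGF-beta, 1, Ltbp2, was higher and 3 were lower (11.1% and 33.3%). Ltbp1, which tethers latent TGF-beta to the matrix, had 1262, 1426 and 1540 counts in MPC and 712, 688 and 530 in MPC-PTX, with a log2FC of -1.21 (SE 0.07, adjusted p = 5.7e-05). Ltbp2, a family member that does not bind latent TGF-beta, had 419, 576 and 525 counts against 1648, 1624 and 1314 and a log2FC of 1.52 (SE 0.12, adjusted p = 0.000151). Itgb6, the beta chain of an integrin that activates TGF-beta, had 1651, 2165 and 2325 counts against 1205, 1100 and 843 and a log2FC of -1.04 (SE 0.11, adjusted p = 0.000518). In all 3 genes the lines did not overlap. Ltbp3, which also binds latent TGF-beta, had a log2FC of -0.64 (SE 0.05) and was also lower.

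Called targets of TGF-beta were mostly lower in MPC-PTX, and called targets of BMP moved in both directions. Of 8 TGF-beta targets tested, 1 was higher and 4 lower (12.5% and 50%, against 14.1% and 15.6% of all genes). Of those named, the feedback inhibitor Pmepa1 (-0.42), the matricellular gene Ccn2 (-0.72) and the cell cycle inhibitor Cdkn1a (-0.31) were lower and the transcription factor Klf10 (0.37) was higher, while Cdkn2b, Jun and Tsc22d1 did not pass (-0.12, -0.08 and 0.01). Of 5 BMP targets tested, Atoh8 (0.85), Hey1 (0.89) and Msx1 (0.89) were higher and Dlx3 (-0.97) and Hes1 (-0.41) lower. These were 60% and 40% of the BMP targets, against 14.1% and 15.6% of all genes, and Hey1 and Hes1 are also known as Notch targets. Of 12 intracellular regulators tested, 2 were higher and 2 lower (16.7% each, near the shares of all genes). Zeb2, a SMAD-binding repressor of epithelial genes, had 10, 5 and 12 counts in MPC and 82, 61 and 56 in MPC-PTX, with no overlap and a log2FC of 2.79 (SE 0.29, adjusted p = 0.000585). Zfyve9 (SARA, which brings SMADs to the receptor) was higher (0.41), and the co-repressor Tgif1 (-0.61) and the type I receptor binding protein Fkbp1a (-0.41) were lower. Of 4 other antagonists tested, Dand5 (0.40) and Tmeff1 (0.60) were higher (50%, against 14.1% of all genes). Of 3 tested co-receptors (Rgmb, Neo1 and Eng), 0 passed edgeR's test or DESeq2, where edgeR called 29.7% of all genes. The co-receptors had 1 unadjusted p under 0.05 in edgeR, that of Rgmb (-0.27, adjusted p = 0.0986). The genes named here as higher or lower had an adjusted p below 0.05, and their log2FCs had SEs of 0.06 to 0.29. Of all 20 called genes of the wider lists, 12 kept their call in every setting that tested them, the 4 with counts printed among them. Zeb2 was tested in 13 settings, since the filter of at least 10 counts in every library removed it. With all 6 libraries Zeb2 passed the low-count filter only through MPC-PTX, the line where it was high. The other 8 (Dand5, Tmeff1, Zfyve9, Ccn2, Cdkn1a, Atoh8, Dlx3 and Hes1) lost it in at least 1 fit that left out a library. All 8 lost it without MPC-PTX replicate 1, and the highest adjusted p was that of Cdkn1a, 0.181, which lost its call in 10 of 14 settings.

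**Figure D5:**
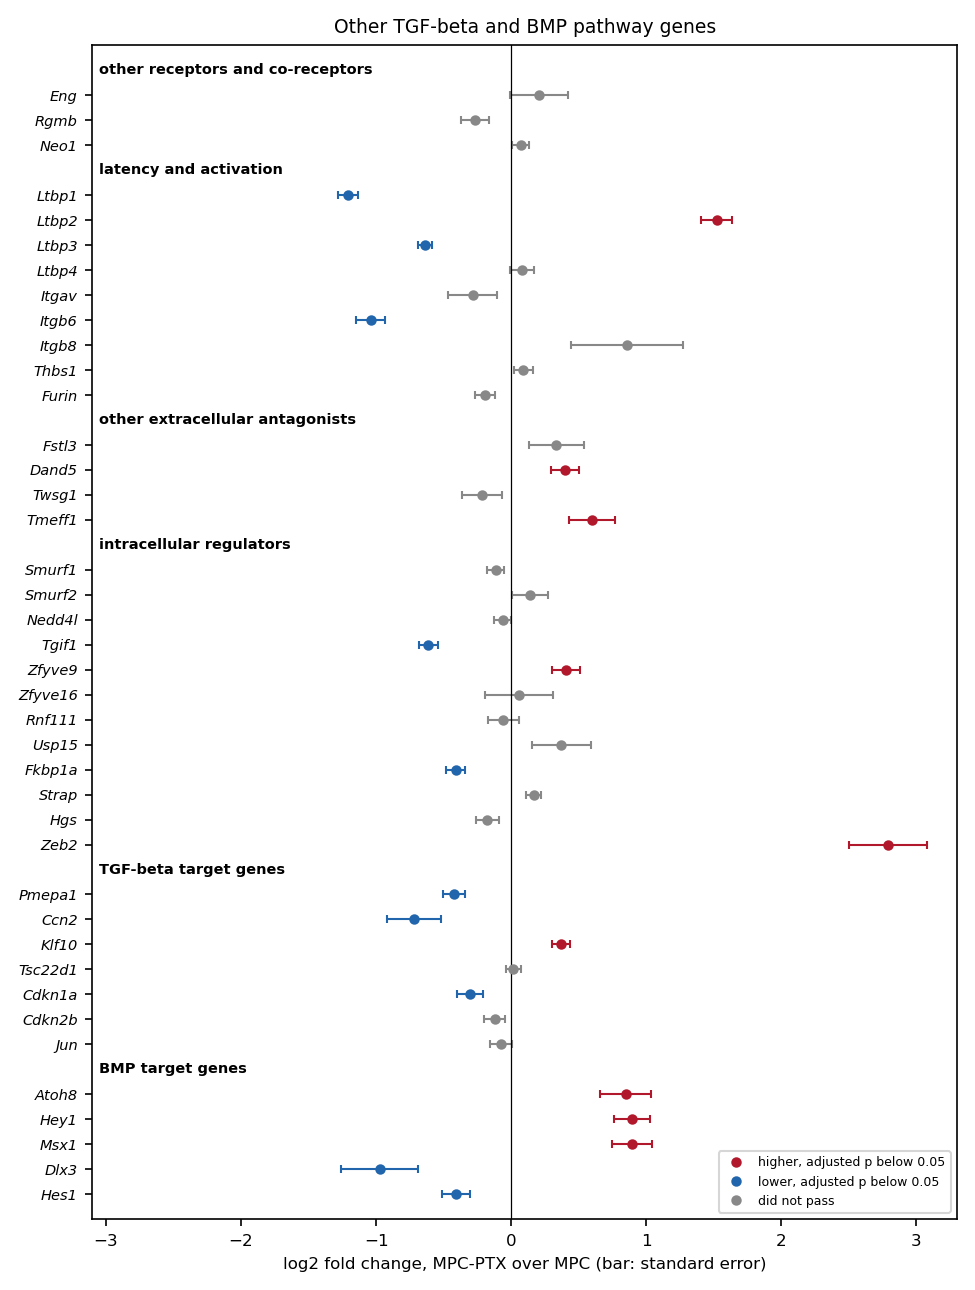
Log2 fold change (log2FC) of 40 tested genes of the wider lists, MPC-PTX over MPC (horizontal axis), with bars for the standard error, red for higher and blue for lower with an adjusted p below 0.05. Ltbp1 (-1.21) and Itgb6 (-1.04) lie farthest left and Zeb2 (2.79) and Ltbp2 (1.52) farthest right.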

How the data were processed

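Poly-A selected RNA of MPC and MPC-PTX was sequenced as 3 random-primed libraries per line. The authors trimmed with fastp 0.22.0, used HISAT2 for mapping and deposited raw read counts per gene, not normalized. The genome release, annotation, counting tool and strand setting are not given in the sources used here, so genes with near-identical copies or overlapping exons are uncertain. The deposited tables of the 6 samples equalled the series table. The authors' own comparison with DESeq was not used.

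The counts were normalized by TMM. After a low-count filter (filterByExpr, minimum count 10, lines as groups) 11795 genes remained, and MPC-PTX was tested against MPC with no covariate by the robust quasi-likelihood test of edgeR 4.0.16 in R 4.3.3, with Benjamini-Hochberg adjustment over all of them. CPM use the TMM-scaled library size, and depth ran from 16574580 to 23148182 counts. Standard errors of log2 fold changes were derived from the F statistic. A count of 0 over a line was taken to allow 3 counts, which covers counting error only. GENCODE M21 (GRCm38), joined by Ensembl identifier, gave positions, length and GC content, and RefSeq (GRCm38.p6), joined by symbol, gave promoters. The scripts were tested on simulated data.

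The members and the lists were chosen with earlier results of these data known. By the naming rule every member is accounted for by role, with counts per library for members past an absolute log2 fold change of 1 and for the most abundant member per kb of each role, and wider-list genes past 1 are named. Counts of further members and the other wider-list genes were added after their values had been seen. Of the genes the rule names, 1 of the wider lists is not reported here. The naming rule also asked for the promoters of all ID genes and for protein sequences, and only those promoters printed or counted are reported. The promoters of Inhba and Gdf15 were outside the naming rule. The alternatives were DESeq2 1.42.0, its size factors, the library size alone, no filter, a minimum of 10 counts in all samples, a block for the replicate number, a loess correction (span 0.3) for GC content and length with and without that block, and each library left out in turn.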

Additional observations from a re-analysis of the deposited data

How the results depend on the processing

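With 8 members higher, 4 lower, 2 past the study's rule and 20 other pathway genes called, leaving out 1 library gave 3 to 17, 1 to 4, 2 to 4 and 12 to 29. The highest counts came without MPC replicate 3, and the lowest without MPC-PTX replicate 1 (4, 2, 2 and 12) or replicate 2 (3, 1, 2 and 13). A filter of at least 10 counts in every library removed Gdf15 and left 1 member past the study's rule. Every other setting that kept all libraries moved these counts by at most 1.5 times: DESeq2 gave 7, 4, 2 and 19, the library size alone 9, 4, 2 and 20, and the correction for GC content and length 12, 5, 2 and 23. Of the 12 called members, 3 kept the call in all 14 alternatives and 0 reversed.

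Same-numbered libraries of the 2 lines deviated with correlations of 0.15, -0.02 and 0.17, so the numbers were not taken to pair the samples. Not every library correlated best with its own number, a hint from the data alone. The replicate block gave 10 members higher, 4 lower, 2 past the study's rule and 17 other pathway genes. It added the receptors Tgfbr1 (log2 fold change 0.78, adjusted p = 0.0374), Bmpr2 (0.77, adjusted p = 0.0345) and Acvr2a (0.46, adjusted p = 0.0297) to the higher members and lost Tgfb3. With the GC and length correction as well, the replicate block gave 12, 5, 2 and 22.

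Depth limits the low members: Gdf15, Bmp6 and Nog rest on at most 30 counts per library, and a count of 0 leaves levels under the stated limits undetectable. Tgfb2, Smad2, Smad4 and Id3, whose lines did not overlap, did not pass with all libraries and passed without MPC replicate 3; the cause was not tested.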
